A study of Glycine max with 4 samples.

Results

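GmWRI1 occupancy was described at 6 soybean genes that act after the fatty acid synthase, in acyl desaturation, export of fatty acids from the plastid and assembly of triacylglycerol (TAG). They were *FAB2* (Glyma.02G138100), *FatA* (Glyma.08G349200), *LACS9* (Glyma.06G112900), *FAD2* (Glyma.20G111000), *ROD1* (Glyma.08G213100) and *DGAT1* (Glyma.09G065300), out of 110 genes for which the study located GmWRI1 sites among genes of fatty acid and TAG (FAT) synthesis. The 6 genes were chosen by their measured fold enrichment, as 2 strongly occupied genes (*ROD1* and *LACS9*) and 4 weakly occupied genes (*FAB2*, *FatA*, *FAD2* and *DGAT1*). The difference between these groups is therefore a description and was not tested. The same holds for the summit reads and −log10 q values, which come from the same peaks.

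Chromatin came from Williams 82 embryos of the early maturation (em) stage, taken out of seeds 6 to 7 mm in length and cross-linked with 1% formaldehyde. Antibodies against a peptide of GmWRI1 (Glyma.08G227700), which per the study's methods recognize both GmWRI1 proteins, were used for chromatin immunoprecipitation followed by sequencing (ChIP-Seq). There were 2 ChIP and 2 input samples, with no treatment or mutant, and the labels call the replicates biological. A ChIP-Seq peak is a stretch of genome with more immunoprecipitated reads than its local background, and its summit is the base with the highest read pile-up. The peak lists held 22982 peaks in replicate 1 and 20027 in replicate 2, with a median of 37 and 26 reads at the summit. The local background was nowhere below 7.17 reads in the first list or 3.80 in the second, and library totals were not analysed here.

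WRINKLED1 is an AP2-type transcription factor that, in *Arabidopsis* seeds, promotes the conversion of sugars into fatty acids. Fatty acids are built in the plastid on acyl carrier protein (ACP), desaturated, released by a thioesterase and activated to acyl-CoA for use in the endoplasmic reticulum. There, acyl chains pass through phosphatidylcholine, where further double bonds are introduced, and are joined to glycerol to form TAG, the storage oil of the seed.

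Peaks of both replicates were found at all 6 genes. The 6 genes have 7 sites, each 101 bp long in the coordinates used here, and 6 of these sites carried a peak in both lists. For comparison, 91.6% of the 119 sites in FAT genes carried a peak in both lists, and 58.1% of the 26116 regions occupied in either list did. The study located the sites on these samples, so their recovery is not independent evidence. *ROD1* and *LACS9* were enriched 28.5-fold or more on average, whereas the averages of the 4 weak genes lay between 3.89 and 7.12. The median over the 2 strong genes was 39.5 and over the 4 weak genes 4.57, a ratio of 8.65. This ratio was 8.38 in replicate 1 and 8.77 in replicate 2. The median over the 15181 regions shared by both replicates was 5.03. Among these regions *ROD1* was at percentile 99.7, *LACS9* at 97.3, *FAB2* at 72.9, *FatA* at 52.2, *DGAT1* at 24.0 and *FAD2* at 21.5.

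**Figure D1:**
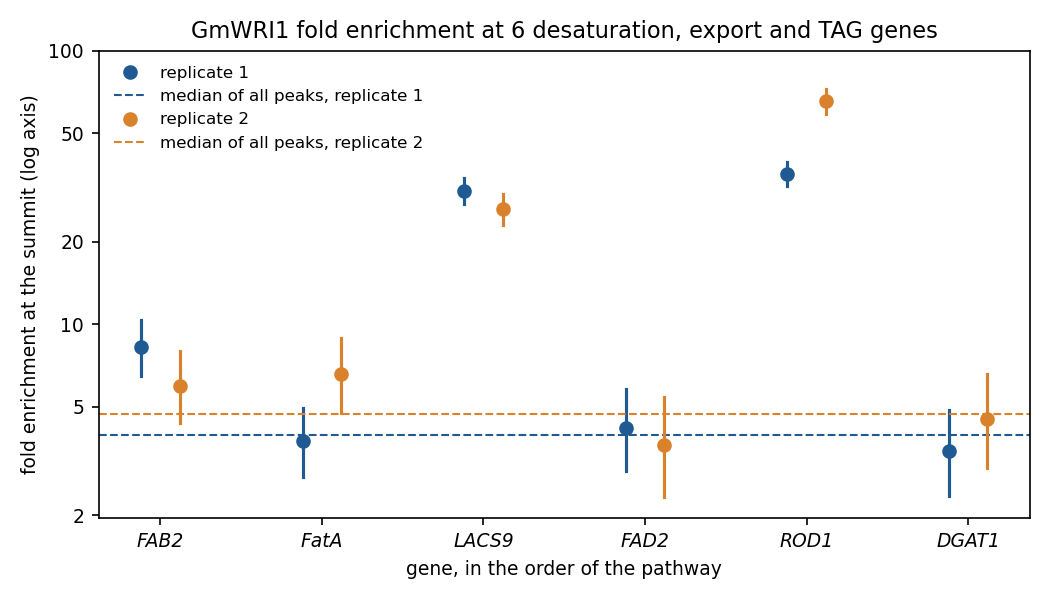
Fold enrichment of the GmWRI1 peak at each gene (points, log axis) in replicates 1 and 2, in the order of the pathway. Vertical lines are 95% exact Poisson intervals of the summit reads, and dashed lines are the medians of all peaks in each list (3.92 and 4.71). *LACS9* and *ROD1* lie between 26.3 and 65.6, and the other genes lie between 3.44 and 8.27.

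*FAB2* encodes the stearoyl-ACP desaturase, which introduces the first double bond into the acyl chain in the plastid. Its sites lie on chromosome 2, at 14302291 to 14302391 and at 14303033 to 14303133 (build Wm82.a2.v1). The first site had no peak in either list, and the nearest summits were those of the second site, 741 bp away in replicate 1 and 730 bp in replicate 2. At the second site, fold enrichment was 8.27 in replicate 1 (95% exact Poisson interval, 6.49 to 10.4) and 5.97 in replicate 2 (4.37 to 7.97). These intervals cover counting error of the summit reads only, with the background taken as fixed. *FAB2* was the strongest of the weak genes in replicate 1, with 71 summit reads over a background of 7.70 reads. It was second among them in replicate 2, with 44 reads over 6.54. Its mean was 7.12 ± 1.63 (SD, n = 2).

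*FatA* encodes the acyl-ACP thioesterase that releases mainly oleate from ACP, the step before export. Its site lies on chromosome 8, at 46347674 to 46347774. Fold enrichment was 3.74 in replicate 1 (2.76 to 4.96) and 6.58 in replicate 2 (4.73 to 8.94), with a mean of 5.16 ± 2.01 (SD, n = 2). The gene thus ranked second lowest of the 6 genes in replicate 1 and next below *LACS9* in replicate 2. Summit reads were 46 and 39, a ratio of 1.18. The local background was 11.6 reads in replicate 1 (percentile 91.5 of that list) and 5.08 in replicate 2. The part of this background in the difference between the replicates was not tested.

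*LACS9* encodes a long-chain acyl-CoA synthetase that in *Arabidopsis* resides at the plastid envelope and activates fatty acids leaving the plastid. Its site lies on chromosome 6, at 9174339 to 9174439. Fold enrichment was 30.7 in replicate 1 (27.5 to 34.2) and 26.3 in replicate 2 (23.1 to 30.0), with a mean of 28.5 ± 3.07 (SD, n = 2). The summit held 326 reads in replicate 1 and 229 in replicate 2. The background in replicate 2 was 7.73 reads, which is 2.03 times the lowest of that list and at its percentile 98.1. *LACS9* was second of the 6 genes in both replicates.

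*FAD2* encodes the oleate desaturase of the endoplasmic reticulum, which makes linoleate on phosphatidylcholine. Its site lies on chromosome 20, at 35316784 to 35316884. Fold enrichment was 4.16 in replicate 1 (2.90 to 5.80) and 3.62 in replicate 2 (2.33 to 5.40), with a mean of 3.89 ± 0.38 (SD, n = 2), the lowest of the 6 genes. The summit held 33 reads over a background of 7.17, the lowest in the list of replicate 1, and 22 reads over 5.35 in replicate 2. Its −log10 q was 10.0 and 5.59.

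*ROD1* encodes phosphatidylcholine:diacylglycerol cholinephosphotransferase, which exchanges headgroups between these lipids and so moves acyl chains in and out of phosphatidylcholine. Its site lies on chromosome 8, at 17189867 to 17189967. Fold enrichment was 35.5 in replicate 1 (32.1 to 39.1) and 65.6 in replicate 2 (58.9 to 72.7), with a mean of 50.5 ± 21.3 (SD, n = 2). *ROD1* was first of the 6 genes in both replicates. The summit held 411 reads in replicate 1, where the highest of any peak was 420, and 355 in replicate 2, where the highest was 388. Of all peaks it ranked 161st by fold enrichment in replicate 1 and 36th in replicate 2. The fold enrichments of the replicates differed by a factor of 1.85 although the summit reads differed by a factor of only 1.16. The background was 10.6 reads in replicate 1 and 4.43 in replicate 2, a ratio of 2.40, while the lowest backgrounds of the lists had a ratio of 1.89. The part of the background in this difference was not tested.

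*DGAT1* encodes diacylglycerol acyltransferase, which adds the last acyl chain of TAG. Its site lies on chromosome 9, at 6393703 to 6393803. Fold enrichment was 3.44 in replicate 1 (2.36 to 4.87) and 4.52 in replicate 2 (2.98 to 6.58), with a mean of 3.98 ± 0.76 (SD, n = 2). The summit held 30 reads over a background of 8.01 in replicate 1 and 25 reads over 4.76 in replicate 2. *DGAT1* was the lowest of the 6 genes in replicate 1 and second lowest in replicate 2. Its −log10 q was 7.02 and 8.53.

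**Figure D2:**
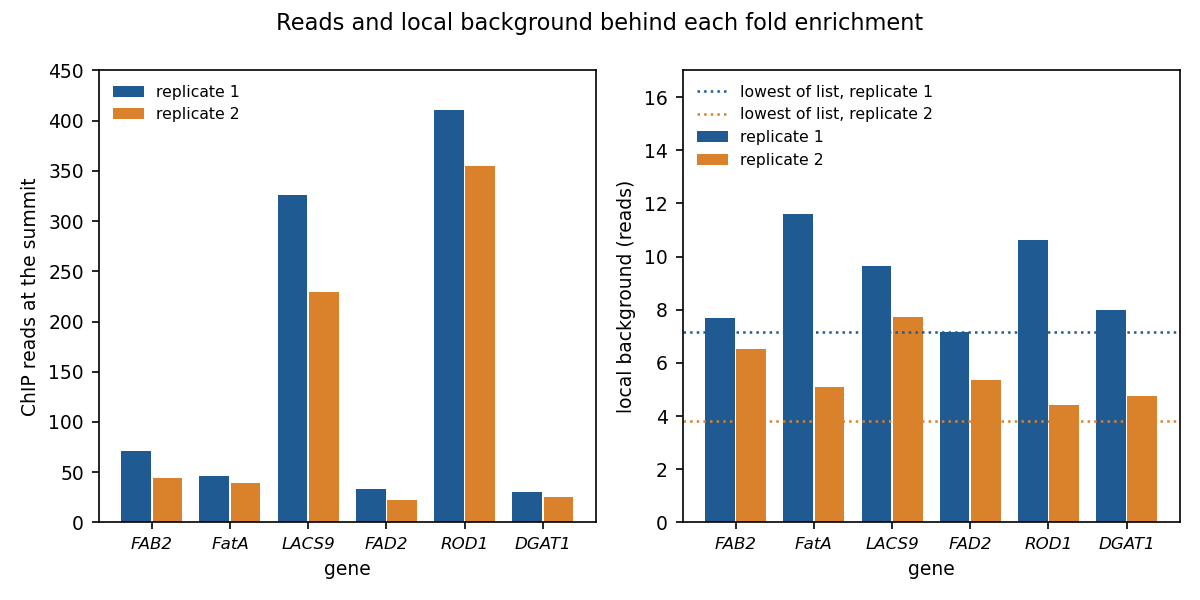
ChIP reads at the summit (left) and local background in reads (right) for each gene in replicates 1 and 2. Dotted lines mark the lowest background of each list (7.17 and 3.80 reads). *ROD1* and *LACS9* had 229 to 411 summit reads and the other genes 22 to 71, whereas the backgrounds of the groups overlapped (4.43 to 10.6 and 4.76 to 11.6 reads).

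The order of the strong genes was the same in both replicates, and that of the weak genes was not. Replicate 1 ranked the weak genes as *FAB2*, *FAD2*, *FatA* and *DGAT1*, and replicate 2 as *FatA*, *FAB2*, *DGAT1* and *FAD2*. The means of *FAB2* and *FatA* differed by less than the SD at *FatA* but by more than that at *FAB2*. Those of *FatA* and *DGAT1* differed by less than the SD at *FatA* but by more than that at *DGAT1*. Those of *DGAT1* and *FAD2* (3.98 and 3.89) differed by less than either SD. Neighbours by mean among the weak genes thus differed by less than the larger of their SDs, each from n = 2. The lower value at *LACS9* (26.3) was above the highest value of any weak gene (8.27).

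Against all FAT genes, the strong genes stood at different places. Among the 105 FAT genes with a site occupied in both replicates, *ROD1* ranked 6th by mean fold enrichment, *LACS9* 52nd, *FAB2* 75th, *FatA* 87th, *DGAT1* 99th and *FAD2* 103rd. *LACS9* was therefore near the middle of the FAT genes, although its peak was above 97.2% of all peaks in replicate 2 and 98.8% in replicate 1. Between *LACS9* and *FAB2* lay 22 FAT genes, and the nearest FAT genes beyond this gap had means of 29.7 and 7.10. Of the 6 genes, 2 reached the strongest 5% of both lists, against 5.94% of shared regions and 62 of the 105 FAT genes. Because the genes were chosen on this measure, nothing is read from that count.

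For each gene, the other FAT gene with the most similar pair of log2 fold enrichments (Euclidean distance over the 2 replicates) was identified. For *ROD1* it was *G6PD2* (Glyma.18G284600), which encodes a glucose-6-phosphate dehydrogenase, with 36.4-fold and 61.7-fold enrichment and a distance of 0.10. For *LACS9* it was *PKP-ALPHA* (Glyma.20G136200), a plastid pyruvate kinase subunit, with 33.5-fold and 28.2-fold (distance 0.16). The genes nearest to the weak genes were *MCMT* (Glyma.11G164500) for *FAB2*, *KCS11* (Glyma.04G149300) for *FatA*, *PKP-BETA1* (Glyma.20G164500) for *FAD2* and *LACS4* (Glyma.11G017900) for *DGAT1*. Their distances were 0.07, 0.15, 0.09 and 0.07 in that order. *PKP-ALPHA* and *PKP-BETA1*, subunits of the same plastid enzyme, thus stood beside a strong and a weak gene.

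The peaks of the replicates were then compared in position. At *ROD1* the summits lay 1 bp apart and at *LACS9* 2 bp apart, and at most 2 bp from the centres of the sites. At *FAB2* they lay 11 bp apart, at *FatA* 40 bp, at *FAD2* 44 bp and at *DGAT1* 117 bp. The *DGAT1* summit fell 78 bp to one side of the site's centre in replicate 1, outside the site, and 39 bp to the other side in replicate 2. The median over all shared regions was 40 bp. It was 10 bp in the 760 regions that made up the strongest 5%, and 49 bp in the 9959 regions with a mean fold enrichment of 3.5 to 7.5, with a 90th percentile of 228 bp in the latter. The positions at the 6 genes thus lay within the range of regions of similar strength. The overlap of the replicate peaks was smallest at *DGAT1*, with 222 bp or 63.4% of the peak of replicate 1, and the peak of replicate 2 lay wholly within that of replicate 1 at *ROD1* and *FAB2*.

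Peaks were wider at the strong genes, a measure of the same peaks by which the genes were chosen. The *ROD1* peak spanned 1055 bp in replicate 1 and 948 bp in replicate 2, and the *LACS9* peak 990 and 858 bp. The *FatA* peak spanned 514 and 581 bp, the *FAB2* peak 470 and 375 bp, the *DGAT1* peak 350 and 276 bp and the *FAD2* peak 275 and 237 bp. The groups did not overlap, and no test was run, since 2 genes against 4 are too few for an exact permutation test to pass the usual threshold. The median of all peaks was 395 bp in replicate 1 and 357 bp in replicate 2. To see width beside strength, each peak was compared with the peaks of its own list within 10% of its fold enrichment. In replicate 1, 140 such peaks had a median width of 893 bp beside 1055 bp at *ROD1*, and 164 had a median of 881.5 bp beside 990 bp at *LACS9*. In replicate 2, only 52 peaks were that close to *ROD1*, with a median of 2005 bp, and the 948 bp of *ROD1* were at percentile 25.0 of their widths. At *LACS9* in replicate 2 the median was 753 bp, beside 858 bp. Among peaks of similar fold enrichment, *ROD1* was at percentile 63.6 of width in replicate 1. *LACS9* was at percentile 57.9 in replicate 1 and 59.9 in replicate 2. The strong genes were thus not unusually wide for their strength.

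**Figure D3:**
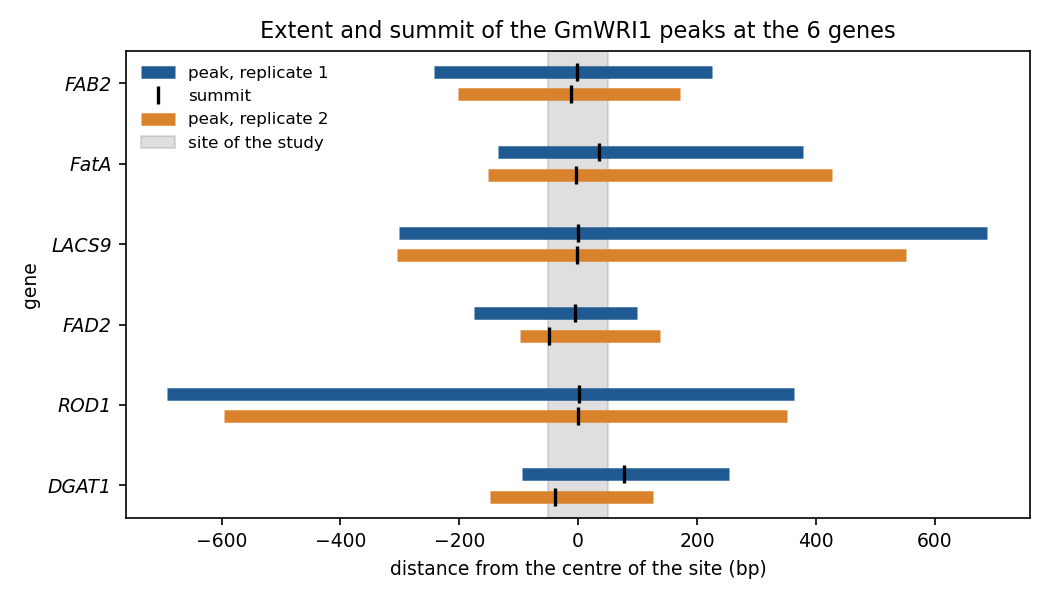
Extent of the peaks (bars) and their summits (black ticks) in replicates 1 and 2, as distance in bp from the centre of the site, which is shaded. The peaks of *ROD1* and *LACS9* span 858 to 1055 bp with summits 1 and 2 bp apart between replicates, and the other peaks span 237 to 581 bp with summits 11 to 117 bp apart.

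The wide peaks were not centred on their summits, and neither were some of the narrower ones. At *ROD1* the summit lay at 65.6% of the peak's length in replicate 1 and 62.8% in replicate 2, counted from the lower coordinate. At *LACS9* it lay at 30.4% and 35.3%. At *FAB2* it lay near the middle, at 51.5% and 50.7%, and at *DGAT1* it lay at 49.4% and 39.9%. At *FatA* it lay at 33.1% and 25.5%, and at *FAD2* at 61.8% and 20.7%. An off-centre summit was thus not particular to the strong genes. The place of these peaks within exons, introns or untranslated regions was not analysed here, because gene models of the build were not used, and no site sequence was read.

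The surroundings of the genes differed. Within 30 kb of the region's centre, *LACS9* had 4 other regions occupied in both replicates, *ROD1* and *FAB2* had 3 each, and *FatA*, *FAD2* and *DGAT1* had 1 each, against a median of 2 over all shared regions (10th to 90th percentile, 0 to 4). The peak at *FAB2* was not the strongest of its neighbourhood. A peak centred 4362 bp from the site in replicate 1 and 4359 bp in replicate 2 (chromosome 2, 14298397 to 14299034) reached 23.4-fold and 25.9-fold, with 198 and 137 summit reads. Its mean was 24.6 ± 1.73 (SD, n = 2), above the 7.12 ± 1.63 at *FAB2* itself and near that of *LACS9*. A second strong peak lay 24134 bp away, with 15.2-fold and 15.8-fold enrichment. Neither was assigned to a gene here.

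*LACS9* also had a strong neighbour, 6117 bp from its summit in replicate 1 (chromosome 6, 9167946 to 9168633), with 19.8-fold and 13.2-fold enrichment. *LACS9* was the stronger of this pair in both replicates. *ROD1* had no strong neighbour. The nearest other region occupied in both replicates was 10109 bp from its edge, and the strongest within 30 kb had a mean of 7.23. A peak of 3.90-fold at 8602 bp was listed in replicate 1 only. *FatA*, *FAD2* and *DGAT1* had no other region occupied in both replicates within 10 kb either. Their nearest such regions lay further off than that of *ROD1*, at 21127, 26269 and 16499 bp in that order. The single other region near each had a mean of 7.88, 8.98 and 4.66 in that order, in each case above the gene's own peak in both replicates. Because the 6 genes were chosen by the strength of their own peaks, these comparisons with neighbours rest in part on that choice. The share of all shared regions without a neighbour within 10 kb was not analysed here, so no trait of these genes is read from its absence.

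**Figure D4:**
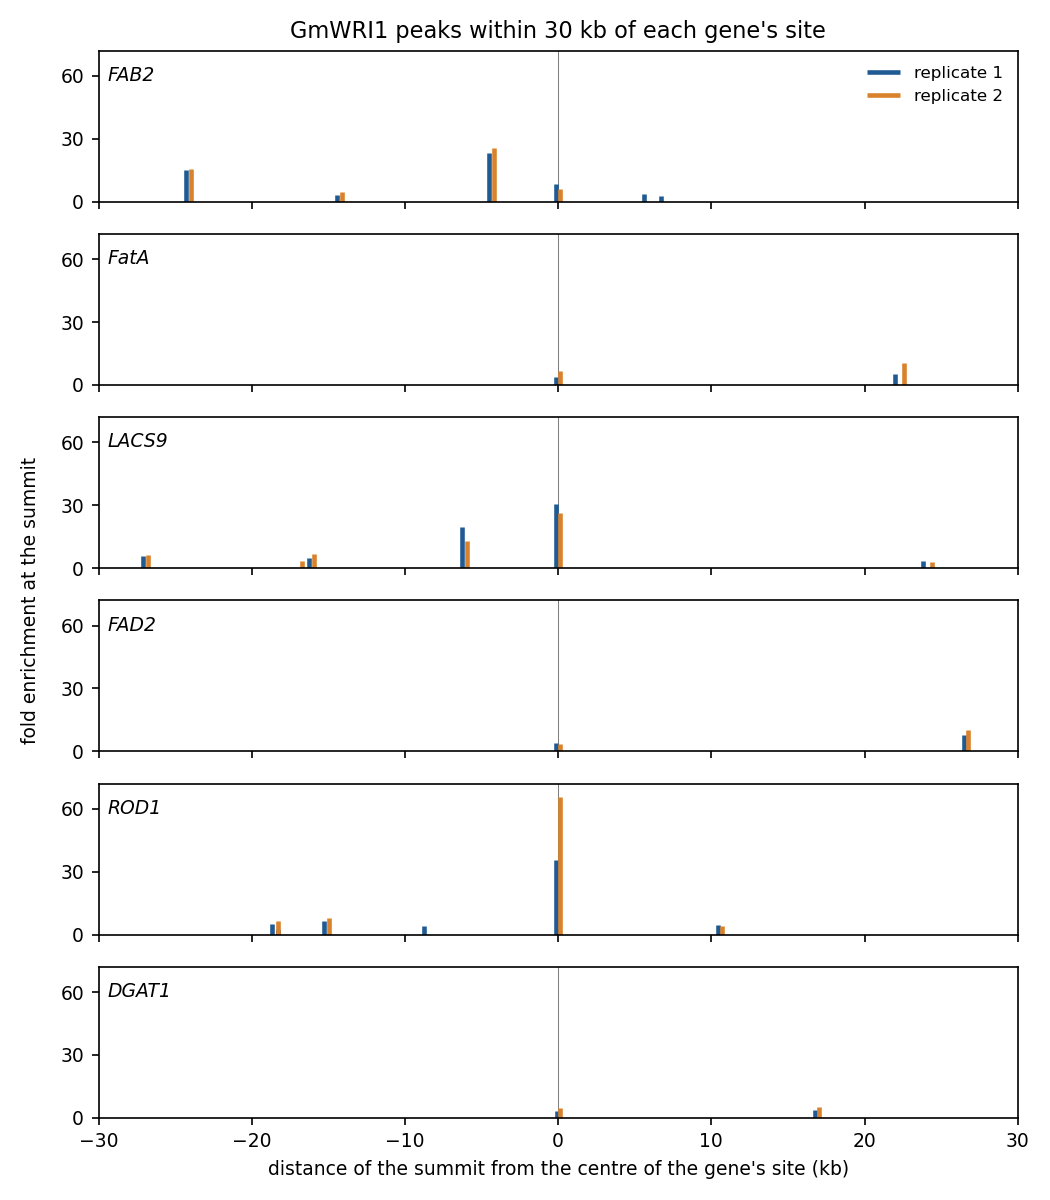
Fold enrichment (vertical lines from 0) of all peaks within 30 kb of each gene's region in replicates 1 and 2, by distance in kb of the summit from the centre of the gene's site. *FAB2*, at 8.27 and 5.97, has a neighbour of 23.4 and 25.9, whereas *ROD1*, at 35.5 and 65.6, has no neighbour with a mean above 7.23.

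Occupancy was then described for companion genes of the same steps, which were taken from the study's FAT table by their symbols. Of 134 companion genes, 14 had a position in the tables at hand, and 12 of these had a peak in both replicates. The count was 6 where summits had to lie within 100 bp of the centre of the position. Because these positions come from tables of bound sites, that share does not measure how often such genes are bound. Of the 7 with a site of the em stage, 5 had a peak in both replicates, and all 7 with a bound region did, 6 of them located in data of the cotyledon stage. The study reports that its cotyledon stage data did not pass the quality thresholds applied and gave fewer bound genes. The mean fold enrichments of the 12 genes ranged from 3.28 to 53.3, with a median of 7.42, against 5.03 over all shared regions. This median pools 2 ways of locating genes. It was 4.55 for the 5 located by a site (3.28 to 5.49) and 15.5 for the 7 located by a bound region. Both *LACS1* (Glyma.02G010300) and the phosphatase gene *AtLPP3* (Glyma.02G089100) had a peak only in the list of replicate 1, with 4.29-fold and 3.07-fold enrichment.

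The strongest companion was the other *ROD1* copy with a position, Glyma.07G029800 on chromosome 7. Its peak, at 2380342 to 2381311 in replicate 1, was enriched 42.7-fold in replicate 1 and 63.9-fold in replicate 2, with 397 and 346 summit reads. Its mean of 53.3 ± 14.97 (SD, n = 2) and that of *ROD1* on chromosome 8 (50.5 ± 21.3) differed by less than the spread between replicates. The chromosome 7 copy was higher in replicate 1 and lower in replicate 2. Within the same neighbourhood, 8096 bp from its summit in replicate 1, lay the peak of *FAD5* (Glyma.07G030000), a plastid acyl desaturase in *Arabidopsis*, with 5.71-fold and 5.27-fold enrichment. Reads shared between the copies could not be examined, since the mapping options are unknown here and the sequences of the copies were not compared.

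Of 22 companion desaturase genes, only *FAD5* and *DES6* had a position, and the others were not analysed here. *DES6* (Glyma.14G121400) had 4.41-fold and 5.21-fold enrichment. Among *FAB2*, *FAD2*, *FAD5* and *DES6* no mean exceeded the 7.12 of *FAB2*, but *FAB2* and *FAD2* were chosen as weakly occupied. No level of the desaturase genes is therefore read from these values. The 10 further acyl-ACP thioesterase genes were without a position and were not analysed here. Among the acyl-CoA synthetases, *LACS1* (Glyma.03G221400) had 13.8-fold and 20.1-fold enrichment and *LACS4* (Glyma.11G017900) 3.55-fold and 4.37-fold. *LACS9* was the highest of the located members in both replicates, but it was chosen as strongly occupied, so nothing is read from this rank.

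The 4 located acyltransferase genes that act on glycerol phosphate or lysophosphatidate had higher values than *DGAT1* in both replicates. However, *DGAT1* was chosen as weakly occupied, with a mean at percentile 24.0 of shared regions, so nothing particular to these acyltransferases is read from this. The *LPAAT2* genes, which encode lysophosphatidate acyltransferases of an earlier step of TAG assembly, had 21.0-fold and 19.5-fold enrichment (Glyma.02G181300) and 11.9-fold and 10.9-fold (Glyma.10G095500). The glycerol phosphate acyltransferase gene *GPAT6* (Glyma.10G119900), whose *Arabidopsis* counterpart is known for cutin rather than storage oil, had 19.1-fold and 11.8-fold, and its copy Glyma.01G113200 had 4.24-fold and 5.42-fold. *PDAT1*, which makes TAG with an acyl chain taken from a phospholipid, had 5.93-fold and 12.8-fold enrichment at Glyma.07G036400 and 2.68-fold and 3.88-fold at Glyma.13G108100. The phosphatidate phosphatase gene *LPP2* (Glyma.10G270000) had 2.66-fold and 6.44-fold. The 5 located companions with a mean above 10 were the *ROD1* copy, *LACS1* (Glyma.03G221400), both *LPAAT2* genes and *GPAT6* (Glyma.10G119900), all located through bound regions of the cotyledon stage. Since these genes were located in another way, their values stand beside those of the 6 genes with no test.

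**Figure D5:**
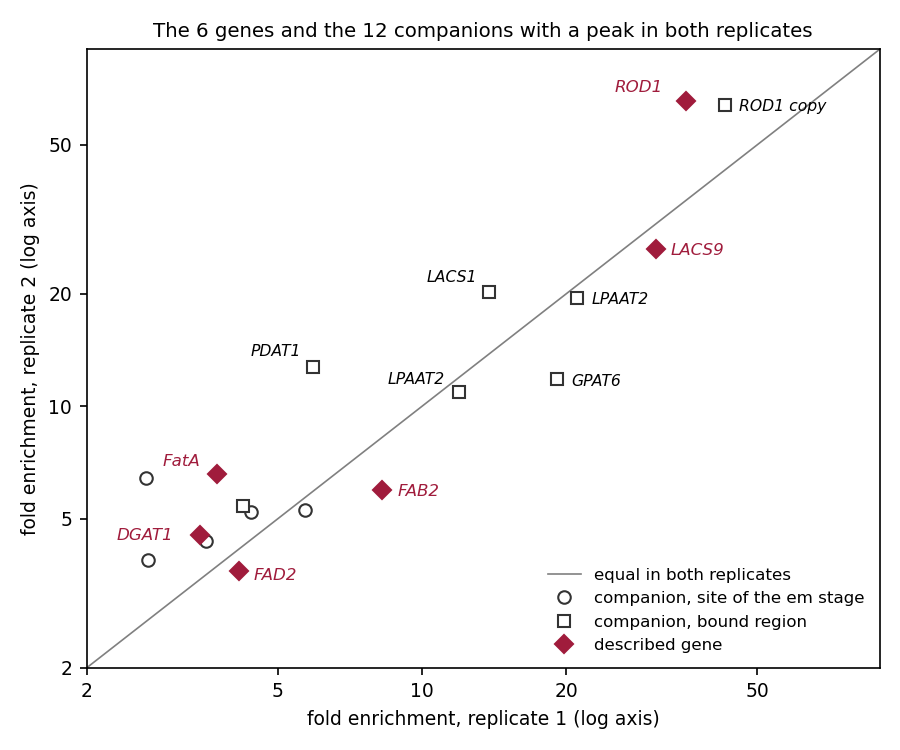
Fold enrichment in replicate 1 against replicate 2 (log axes) for the 6 genes (red diamonds) and the 12 companion genes with a peak in both replicates (open circles, located by an em stage site, and open squares, located by a bound region). The line marks equal values. The 2 *ROD1* copies lie together at the top, and *LACS9* and 1 of the *LPAAT2* genes (Glyma.02G181300) follow. *FAB2*, *FatA*, *FAD2* and *DGAT1* lie among the companions below 9.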

How the data were processed

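ChIP-Seq was performed on em stage embryos, with chromatin sonicated to 100 to 500 bp. The labels gave the groups ChIP (n = 2) and input (n = 2), and only the 2 ChIP peak lists were analysed, the inputs entering through peak calling. The submitters' processing notes name Bowtie 0.12.7 and MACS2, whose version is not stated there. The study's methods name MACS3. The peak names carry a q threshold of 0.01. For duplicate handling and mapping options the sources used here gave nothing. The study's annotation note gave the build, Wm82.a2.v1, and positions are 1-based.

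The deposited fold enrichment is a ratio set by the authors' peak caller, of summit reads to local background with a pseudocount of 1 on both. The deposited −log10 p and −log10 q are the authors' values for the summit. The deposited score is 10 times −log10 q and was not used. Whole summit reads and the background were solved from fold enrichment and −log10 p within 0.001, for 100% of peaks, a step that was tested on simulated data. Sites were linked to peaks by an overlap of at least 1 bp, keeping the strongest peak. The study's tables served only to link positions to genes. Regions were merged peaks of both lists.

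The 6 genes, the companion list and the rule for named genes (the 6 genes, companions with a peak in both replicates, and the nearest FAT gene of each) were chosen with earlier results of these data known. The companions without a second peak and the peaks near *FAB2* and *LACS9* were named after their values were seen. With 2 samples of 1 group, no test was made. Alternatives covered the pseudocount, the background, each replicate, peak choice and thresholds. Python 3.11.15, pandas 2.3.3 and scipy 1.17.1 were used. No genome of the build was used, so sequences and motifs were not analysed here.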

Additional observations from a re-analysis of the deposited data

How the results depend on the processing

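The ratio of strong to weak genes (8.65) was 9.12 with 1 common background per replicate, 7.84 as a ratio of means over genes, and 8.38 to 8.77 in the single replicates. With *FAB2* represented by the stronger peak within 5 kb, an alternative chosen after seeing the data, the ratio of means was 4.20. The ratio of medians could not change, because *FAB2* was already the highest of the weak genes. At a stricter share of 1%, 1 gene (*ROD1*) was among the strongest peaks of both lists, in place of 2. Sites with a peak in both lists numbered 4 at a −log10 q of at least 10, without *FAD2* and *DGAT1*. With summits within 100 bp of the position's centre, 6 companion genes had a peak in both lists in place of 12, and the cause was not tested. For single genes, alternatives were compared with the SD between replicates. Omitting the pseudocount moved the value by more than this SD at *LACS9* (31.7) and *FAD2* (4.36). A common background did so at *LACS9*, *FAB2* and *FAD2*, and *ROD1*, *FatA* and *DGAT1* stayed within it. Use of a single replicate could not pass this SD with n = 2, and the rules of peak choice changed no value. Neither therefore shows stability. At *LACS9* a common background gave 44.0 in place of 28.5, the furthest of these alternatives. No paired analysis was possible because no comparison came from a test. Precision is limited by 22 to 71 summit reads at the weak genes, and no level can be given for the *FAB2* site without a peak, since the lists hold only peaks past the threshold.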

Other observations

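Fold enrichment divides summit reads by a background that was estimated at each peak, and the background of the 6 genes did not keep the same proportion between the replicates. The ratio of the backgrounds, replicate 1 over replicate 2, was 2.40 at *ROD1* and 2.28 at *FatA*, and 1.18 at *FAB2*, 1.25 at *LACS9*, 1.34 at *FAD2* and 1.68 at *DGAT1*. The lowest backgrounds of the lists had a ratio of 1.89. In fold enrichment, replicate 2 was 1.85 times replicate 1 at *ROD1* and 1.76 times at *FatA*, both above the 95th percentile of shared regions (1.74), and 0.72 times at *FAB2*, below the 5th percentile (0.73). When the lowest background of each list was used for all peaks, these ratios were 1.47 at *ROD1*, 1.45 at *FatA* and 1.06 at *FAB2*. The ratio at *DGAT1* rose from 1.31 to 1.43, further from equality. At *LACS9* and *FAD2* it went from 0.858 and 0.870 to 1.197 and 1.15, so that replicate 2 became the higher one. The common background thus did not bring the replicates closer at every gene. With that background the means were 62.3 at *ROD1*, 44.0 at *LACS9*, 9.10 at *FAB2*, 7.05 at *FatA*, 4.61 at *DGAT1* and 4.48 at *FAD2*, in the same order as before.

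The widths of the weak genes varied among themselves as well. *FatA* had the widest peak of the 4, 514 bp in replicate 1, wider than 81.1% of peaks of similar fold enrichment (median 332 bp). *FAD2* had one of 275 bp, as wide as or wider than only 18.3% of such peaks (median 388 bp). In replicate 2 the corresponding shares were 63.9% and 43.3%.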
